A study of Mus musculus with 56 samples.

Results

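Yap1, Birc2, Birc3 and Tmem123 are neighboring genes on mouse chromosome 9, and their expression was followed through 56 mammary tumors, with attention to tumors in which the neighbors were high together. The genes were found by their platform gene symbols. Together they had 7 probe sets, of which the one with the highest mean over all arrays stood for each gene, and all 4 genes passed the filter on low values and were among the 12508 genes tested. In the GRCm38.p6 annotation they lie in the order Tmem123 (7764077 to 7794333), Birc2 (7818226 to 7837131), Birc3 (7847468 to 7873205) and Yap1 (7931999 to 8004638), within 241 kb.

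All tumors arose from p53null mammary fragments that were themselves never irradiated. The fragments were placed in the inguinal fat pads of female BALB/c hosts that had been cleared of their own epithelium when 3 weeks old. Hosts received radiation or sham irradiation 3 days before they received the fragments, and were wild type or heterozygous for TGFb1. For wild-type hosts there were 9 tumors after sham irradiation and 23 after irradiation, and for heterozygote hosts 6 and 18. The lack of p53 was common to every graft, so no group with p53 was available for comparison; the radiation dose is not in the labels. Tumors are named below by host group and by the number in their label. Whether some tumors grew in 1 host is not in the labels, so p-values describe the spread among these samples, part of which may be technical.

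Yap1 encodes YAP, the transcriptional coactivator that the Hippo kinases hold out of the nucleus, and which drives growth genes through the TEAD DNA-binding factors when it enters. Birc2 and Birc3 encode cIAP1 and cIAP2, ubiquitin ligases recruited to TNF receptors through TRAF2, where they favor NF-kB signaling and survival over caspase-dependent death. Tmem123, also called porimin, encodes a membrane mucin linked to a form of cell death. The region is known as a recurrent amplicon in mouse tumors, including mammary tumors, and in its human counterpart. DNA copy number was not analysed here, and the values below are RNA levels only. In whole-tumor RNA, fewer cells of a type and less RNA per cell cannot be told apart.

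The promoters of the 4 genes are shown because the question is whether neighbors with separate start sites rose together. Each sequence is the 250 bases before a transcript start of the RefSeq promoter table (GRCm38.p6), 5′ to 3′ on the strand of the gene; capitals mark a motif match. Birc2 and Tmem123 have 2 such starts each, of which the first listed is shown. The starts shown lie inside the gene ranges given above, so that each window overlaps the outermost bases of its gene.
Yap1, chr9:8004597-8004846, minus strand: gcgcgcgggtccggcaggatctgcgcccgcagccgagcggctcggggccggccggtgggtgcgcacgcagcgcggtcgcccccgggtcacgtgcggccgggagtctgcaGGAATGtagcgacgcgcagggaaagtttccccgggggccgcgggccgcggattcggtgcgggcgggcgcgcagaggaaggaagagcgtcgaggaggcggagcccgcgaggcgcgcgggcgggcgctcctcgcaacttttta
Birc2, chr9:7837058-7837307, minus strand: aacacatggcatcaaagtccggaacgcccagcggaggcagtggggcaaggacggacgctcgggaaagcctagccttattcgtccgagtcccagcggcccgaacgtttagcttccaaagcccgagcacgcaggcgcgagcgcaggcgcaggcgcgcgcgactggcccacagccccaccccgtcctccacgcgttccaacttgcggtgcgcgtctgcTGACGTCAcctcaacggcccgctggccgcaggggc
Birc3, chr9:7873171-7873420, minus strand: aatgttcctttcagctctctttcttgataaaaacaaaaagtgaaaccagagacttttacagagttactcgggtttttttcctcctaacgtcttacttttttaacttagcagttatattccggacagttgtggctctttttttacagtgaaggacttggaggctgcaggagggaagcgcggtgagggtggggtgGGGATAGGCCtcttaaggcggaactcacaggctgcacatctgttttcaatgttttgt
Tmem123, chr9:7763915-7764164, plus strand: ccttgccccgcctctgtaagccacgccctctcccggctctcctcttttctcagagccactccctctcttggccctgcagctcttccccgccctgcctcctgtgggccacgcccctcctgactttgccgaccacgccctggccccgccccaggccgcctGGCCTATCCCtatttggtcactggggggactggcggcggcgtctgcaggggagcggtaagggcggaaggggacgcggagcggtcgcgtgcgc

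The motifs searched, on both strands, were the TEAD motif GGAATG, the NF-kB motif (GGGA and CC separated by any 4 bases), the cyclic AMP response element TGACGTCA and the AP-1 motif TGANTCA. None of these was found in all of the promoters. The capitals in the Yap1 promoter are a TEAD match that begins at -141, a motif present in 12.6% of the 32851 promoters of the same length. In the Birc2 promoter they are the cyclic AMP response element at -35, which 1.55% of promoters held. The Birc3 promoter held an NF-kB match, GGGATAGGCC, at -57, and the Tmem123 promoter a match on its minus strand, read here as GGCCTATCCC, at -92; 17.6% of promoters held such a match. No AP-1 match was found in the printed windows, against 6.75% of all promoters. The promoters of Yap1, Tmem123 and Birc2 were 76.4%, 70.8% and 68.4% G and C, and that of Birc3 was 43.6%, against a median of 52.4% over all promoters. A match is a run of letters in the window, not a tested binding site.

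Levels are log2 RMA values. Yap1 ranged from 10.71 through a median of 11.08 to 11.40 in the sham-irradiated wild-type group, and from 10.16 through 10.94 to 13.17 in the irradiated wild-type group. In heterozygote hosts it ranged from 10.33 through 11.74 to 13.60 after sham irradiation and from 10.5 through 10.96 to 11.96 after irradiation. The ranges of all 4 groups overlapped, and the widest spread was in the 6 sham-irradiated heterozygote tumors, with an SD of 1.28 against 0.41 in the 18 irradiated ones.

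Birc2 was the gene that stood out most in single tumors. Its levels ran from 8.88 through a median of 9.25 to 9.72 in sham-irradiated and from 8.52 through 9.01 to 12.61 in irradiated wild-type hosts. In heterozygote hosts they ran from 8.43 through 9.44 to 11.79 after sham irradiation and from 8.43 through 8.79 to 10.20 after irradiation. The groups again overlapped, and most tumors lay in a narrow band below the few high ones.

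Birc3, which NF-kB itself is known to induce, ran from 8.83 through 9.68 to 10.46 and from 8.38 through 9.90 to 11.91 in the sham-irradiated and irradiated wild-type groups. In the heterozygote groups it ran from 8.99 through 10.37 to 12.24 and from 9.16 through 9.86 to 10.80. Tmem123 showed the same order of groups by their highest tumor: 11.03 and 12.70 in sham-irradiated and irradiated wild-type hosts, and 13.01 and 11.96 in sham-irradiated and irradiated heterozygote hosts. Its group medians lay between 10.65 and 11.07.

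**Figure D1:**
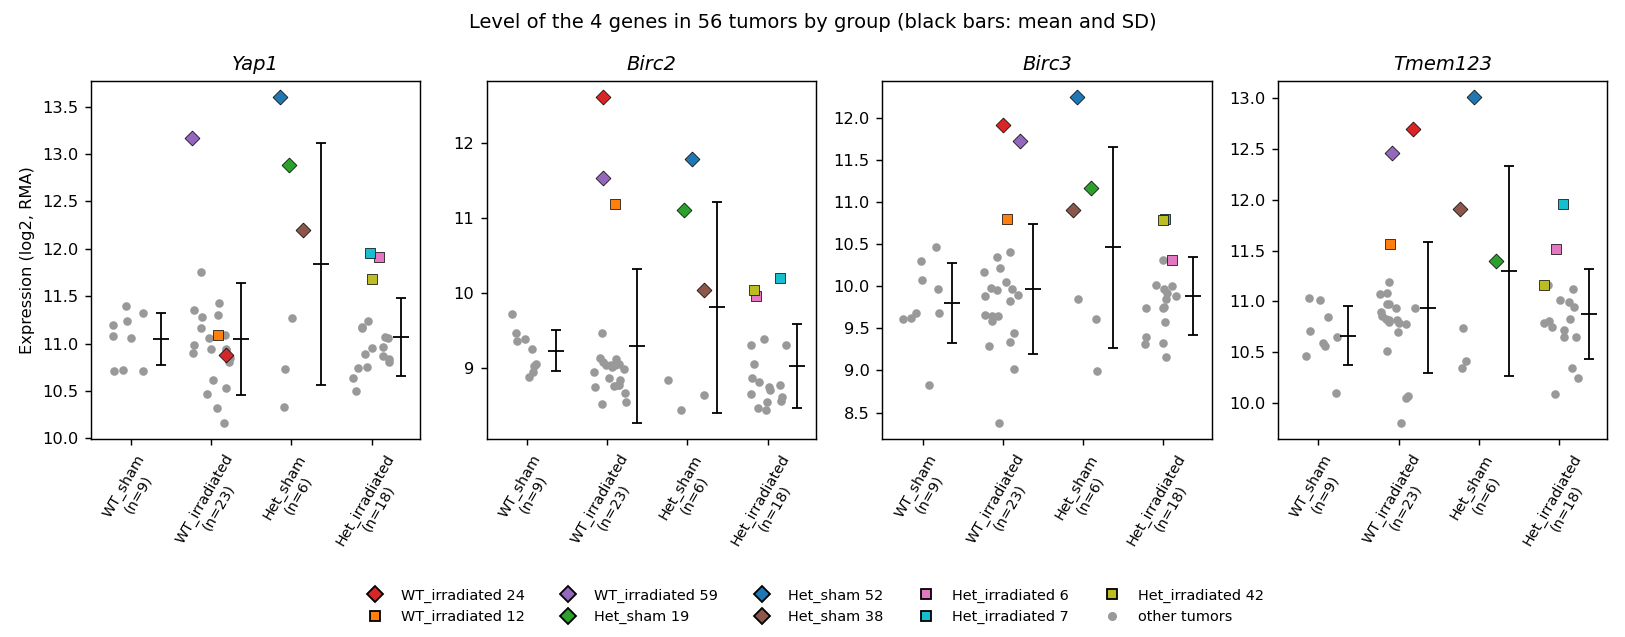
Level of each gene (log2, RMA; vertical axis) in every tumor of the 4 host groups (horizontal axis), with black bars for group mean and SD. Colored symbols are the 9 tumors in which at least 1 of the genes was 2-fold above the host genotype median, diamonds those in which at least 3 were; Het_sham 52 is the highest tumor for Yap1, Birc3 and Tmem123, and WT_irradiated 24 the highest for Birc2.

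To compare tumors, each value was set against the median of all tumors of the same host genotype, and a gene was counted as raised in a tumor where it was at least 2-fold (1 on the log2 scale) above it. Birc2 was raised in 9 of 56 tumors, Birc3 and Tmem123 in 5 each and Yap1 in 4. Over all genes and tumors, 4.42% of pairs were raised (4.55% in wild-type and 4.25% in heterozygote hosts). A count like that of Yap1 was common, since 24.0% of genes were raised in at least 4 tumors, and 10.1% were raised in at least 9, as Birc2 was. The lowest values inside the threshold were 1.19 for Yap1, 1.13 for Birc2, 1.04 for Birc3 and 1.09 for Tmem123, and the highest outside were 0.95, 0.69, 0.94 and 0.73. No tumor was 2-fold below the median for Yap1 or Birc2; 2 were for Birc3 and 1 for Tmem123.

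The high tumors were largely the same ones for all 4 genes. In 47 tumors no gene was raised, in 3 tumors 1 gene, in 1 tumor 2, in 2 tumors 3 and in 3 tumors all 4. At least 3 of the 4 were raised together in 5 tumors: 2 of 23 from irradiated wild-type hosts, 3 of 6 from sham-irradiated heterozygote hosts, and none of the 9 and 18 tumors of the other groups. Every tumor with any of the genes raised had Birc2 raised. The tumors with a joint rise depended on the reference and the probe sets. Against the median of the own group they were wild-type irradiated 24 and 59, heterozygote sham-irradiated 52 and heterozygote irradiated 7. With probe sets chosen by interquartile range they were wild-type irradiated 24 and 59 and heterozygote sham-irradiated 19 and 52.

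In heterozygote sham-irradiated tumor 52, the highest tumor for Yap1, Birc3 and Tmem123, all 4 genes were well above the threshold. Here Yap1 was 6.03-fold, Birc2 7.78-fold, Birc3 5.20-fold and Tmem123 4.56-fold above the host genotype median. In irradiated wild-type tumor 59 the same genes were 4.42-, 5.66-, 3.55- and 3.10-fold above it. With the chosen probe sets, both tumors were high for every gene by a wide margin.

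Heterozygote sham-irradiated tumor 38 was raised more weakly, by 2.28-fold for Yap1, 2.33-fold for Birc2, 2.05-fold for Birc3 and 2.13-fold for Tmem123, all close to the threshold. In tumor 19 of the same group Yap1 was 3.69-fold, Birc2 4.87-fold and Birc3 2.45-fold above the median, while Tmem123, at the other end of the cluster, was 1.49-fold above it. So the rise was uneven along the cluster in tumor 19 and even in tumor 38.

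Irradiated wild-type tumor 24 differed in that Yap1 took no part. Birc2 was 11.9-fold, Birc3 4.06-fold and Tmem123 3.67-fold above the median, with Yap1 at 0.904-fold. Irradiated wild-type tumor 12 had a like profile at a lower level, with Birc2 4.45-fold, Birc3 1.87-fold, Tmem123 1.66-fold and Yap1 1.04-fold. In tumor 24 the genes split between Birc3 and Yap1, a gap of 58.8 kb. In tumor 12 only Birc2 passed the threshold.

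The other 3 tumors came from irradiated heterozygote hosts. Tumor 7 had Birc2 2.59-fold and Tmem123 2.21-fold above the median, with Yap1 at 1.94-fold and Birc3 at 1.91-fold. In tumor 42 Birc2 was 2.33-fold and in tumor 6 it was 2.19-fold above, with Yap1 at 1.59-fold and 1.87-fold. Their values lie just on either side of the threshold, and lowering it to 1.5-fold raised the number of tumors with a joint rise from 5 to 9, whereas 3-fold left 3.

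**Figure D2:**
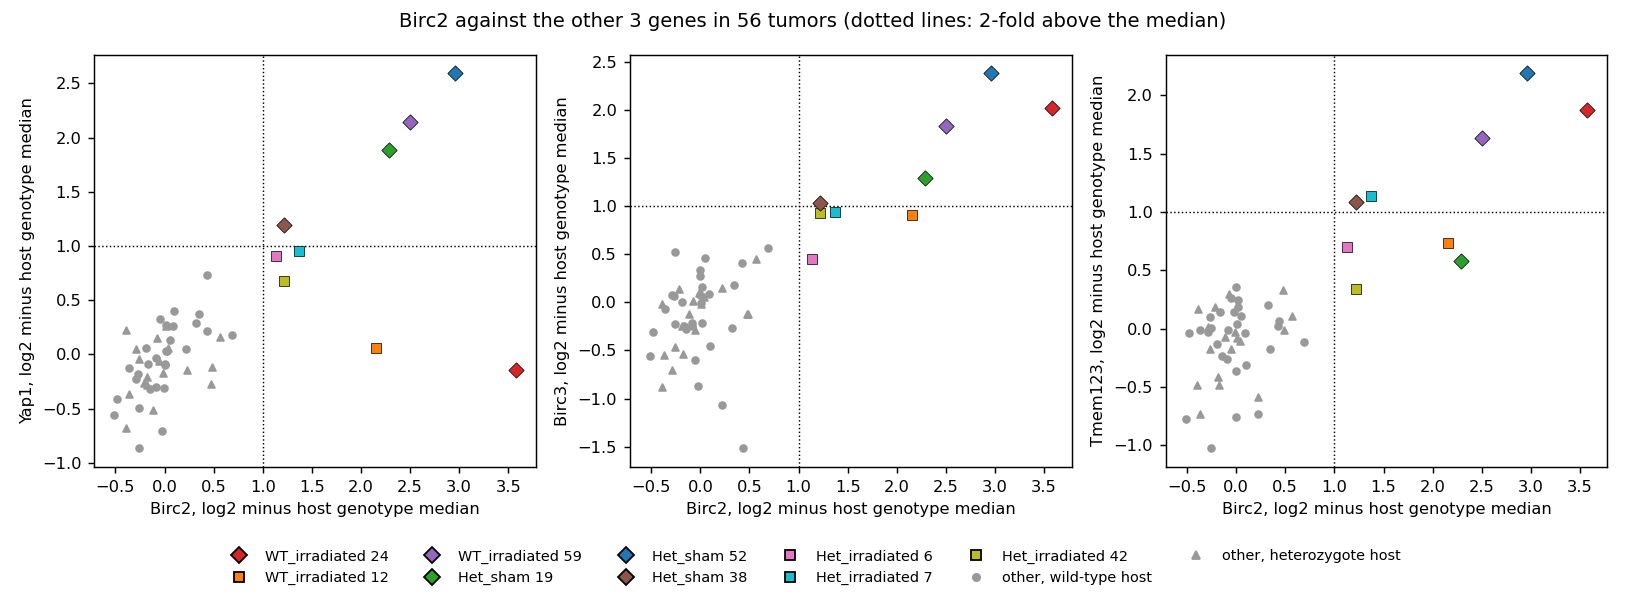
Birc2 (horizontal axis) against Yap1, Birc3 and Tmem123 (vertical axes), each as log2 value minus the median of the tumors of the same host genotype, in 56 tumors; dotted lines mark 2-fold. WT_irradiated 24 and 12 lie far right at a Yap1 difference of -0.15 and 0.06, while the other raised tumors lie along a diagonal.

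A second probe set was present for 3 of the genes. It correlated with the chosen one over 56 tumors at r = 0.809 for Yap1, 0.904 for Tmem123 and 0.899 for Birc3, as a description of 2 probe sets on the same arrays. In heterozygote sham-irradiated tumor 52 the other probe sets stood 2.83, 2.31 and 2.52 above the median (log2) for Yap1, Tmem123 and Birc3. In irradiated wild-type tumor 24 they stood at 0.12, 2.35 and 2.04, so that the split of Yap1 from its neighbors was seen with both. In irradiated wild-type tumor 12 they stood at 0.28, 0.75 and 0.36, so that Birc3 and Yap1 were not split by them. In heterozygote sham-irradiated tumor 38 they were 0.71, 0.66 and 0.48, all under the 2-fold line. In irradiated wild-type tumor 59 they were 1.27, 1.78 and 1.97, where the chosen Yap1 probe set was at 2.14. In heterozygote sham-irradiated tumor 19 they were 1.235, -0.15 and 1.18.

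Joint rises of neighbors were set against the rest of the genome. Of 12402 runs of 4 adjacent tested genes, 10481 (84.5%) had no tumor with at least 3 of the 4 raised, and 0.502% of all pairs of run and tumor were so raised. The run of Tmem123, Birc2, Birc3 and Yap1 had 5 such tumors, and 156 runs (1.26%) on 15 chromosomes had 5 or more. The highest count of any run was 13 tumors.

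**Figure D3:**
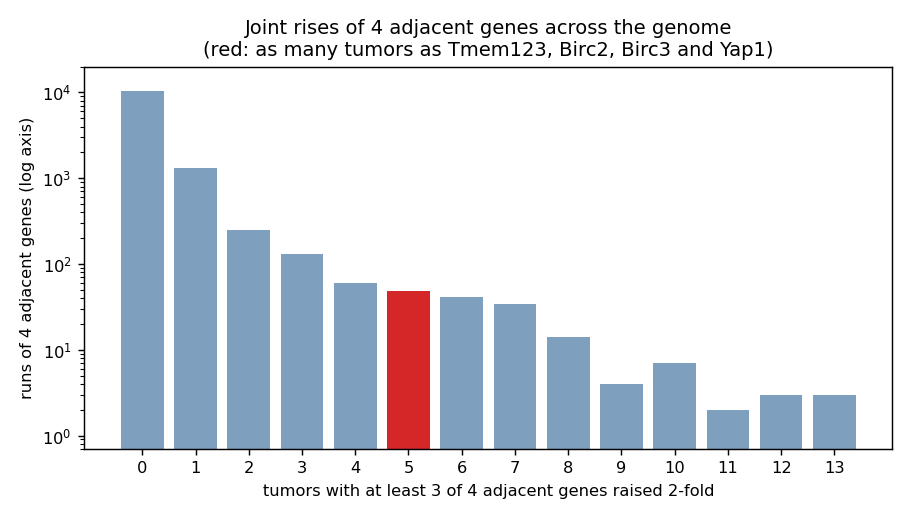
Number of runs of 4 adjacent tested genes (vertical log axis) by the number of tumors in which at least 3 of the 4 were raised 2-fold (horizontal axis). Of the 12402 runs, 48 shared the count of 5 tumors (red) with the Tmem123 to Yap1 run.

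The reach of the rise was followed through the 21 other tested genes within 5 Mb of the Yap1 start. On the Tmem123 side come a cluster of matrix metalloproteinases (Mmp7, Mmp10, Mmp3, Mmp12 and Mmp13), which cut extracellular matrix, then Dcun1d5, Dync2h1, the growth factor gene Pdgfd and the inflammatory caspase genes. On the far side of Yap1 lie Cfap300, Cep126, the progesterone receptor gene Pgr and Arhgap42. The raised set differed from tumor to tumor. Some neighbors were raised often over the series: Mmp13 in 19 tumors, Mmp3 in 18, Mmp10 and Pdgfd in 14, Pgr in 13, Mmp12 in 12 and Cfap300 in 11. The other neighbors were raised in 0 (Cep126) to 7 tumors (Casp4). For the often raised genes, the share of all genes raised in a tumor is not their own baseline.

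In heterozygote sham-irradiated tumor 52, 10 of the 21 neighbors were raised, against 5.74% of all genes in that tumor. The raised genes lay on both sides of the locus, with values above the median (log2) of 4.42 for Cfap300 and 3.32 for Arhgap42 beside Yap1, 2.61 for Dcun1d5, 3.11 for Dync2h1 and 2.86 for Pdgfd on the other side, and 3.79 for Alkbh8, the farthest gene of the window. The 5 metalloproteinase genes and 6 others in between were not raised, with Mmp13 at -2.71, Casp1 at -0.09, Casp4 at 0.82, Casp12 at 0.33, Gria4 at 0.39, Cep126 at 0.21 and Pgr at 0.07. Beyond 5 Mb, Ccdc82 (2.92), Mtmr2 (2.56), Cep57 (2.73), Fam76b (2.86) and Sesn3 (3.07) were still high. After Sesn3, at 6.34 Mb, the next genes were at 0.82 for Endod1 and -0.41 for Cwc15. Farther out Vstm5 (2.64, at 7.31 Mb) and 4931406C07Rik (1.04, at 7.35 Mb) were raised again, with Med17 between them at -0.04.

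Irradiated wild-type tumor 59 had 11 of 21 neighbors raised, against 9.31% of all genes. Dcun1d5 was at 2.43, Dync2h1 at 2.99, Pdgfd at 3.52, Casp12 at 2.77 and Cfap300 at 3.30 above the median. Arhgap42 was at 0.98, Alkbh8 at 0.80 and Ccdc82 at 0.58, so the values were lower toward both ends than in tumor 52 of the heterozygote hosts. The metalloproteinase genes were again not raised, with Mmp13 at -1.22.

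Heterozygote sham-irradiated tumor 19 also had 10 raised neighbors, against 7.61% of all genes, but a different set. Cfap300, Pgr and Arhgap42 were at 2.03, 2.03 and 2.29, and Mmp13, Mmp3 and Mmp10 at 4.07, 3.36 and 2.31, whereas Dync2h1 was at 0.27 and Pdgfd at 0.10. The others raised were Mmp12 and, near the threshold, Casp1 (1.03), Casp4 (1.004) and Casp12 (1.19), farther out on the Tmem123 side. Tumor 38 of the same group had 4 raised neighbors, Pgr at 5.48, Arhgap42 at 1.91, Mmp13 at 1.32 and Mmp3 at 1.18. Farther on, between 10 and 20 Mb of chromosome 9, 15 of 24 genes were raised in tumor 38, against 4.13% of all genes in it. In tumor 19, 11 of these 24 were raised. Mmp13, Mmp3, Mmp10, Mmp12, Pgr and Cfap300 were often raised in other tumors too. Whether their values in tumors 19 and 38 belong to the rise of the locus was not tested.

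Irradiated wild-type tumors 24 and 12 had short profiles. In tumor 24 the unbroken run of raised genes went from Mmp7 to Birc3, over 0.181 Mb, with Mmp7, which encodes matrilysin, an epithelial protease, at 6.35. Cfap300, on the far side of the unraised Yap1, was at -0.88. In tumor 12 Mmp7 was at 4.42 and Cfap300 at 0.02. Only 2 and 3 of the 21 neighbors were raised in these tumors, against 7.15% and 7.07% of all genes.

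Irradiated heterozygote tumors 7 and 6 differed in where the raised genes lay. Tumor 7 had 16 of 21 neighbors raised, with a median of 1.27, against 7.99% of all genes. They included Mmp3 (4.13) and Mmp13 (3.995), both often raised in other tumors, and also Casp1 (2.41), Arhgap42 (2.29) and Dcun1d5 (1.56). In tumor 6 only 4 of 21 were raised, but 20 of 24 genes between 10 and 20 Mb were, at a median of 2.32, against 2.83% of all genes. That stretch ran from Ccdc82 (1.87) at 5.31 Mb from Yap1 to Slc36a4 (2.44) at 7.78 Mb, and included Mre11a (2.28), which acts in DNA break repair; Fut4 within it was at 0.54, and Chordc1, the next gene beyond, was at -0.08. So the largest rise of tumor 6 lay beside the Yap1 locus rather than on it. Tumor 42 had 1 raised neighbor, Pgr at 1.61, a gene raised in 13 tumors of the series.

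**Figure D4:**
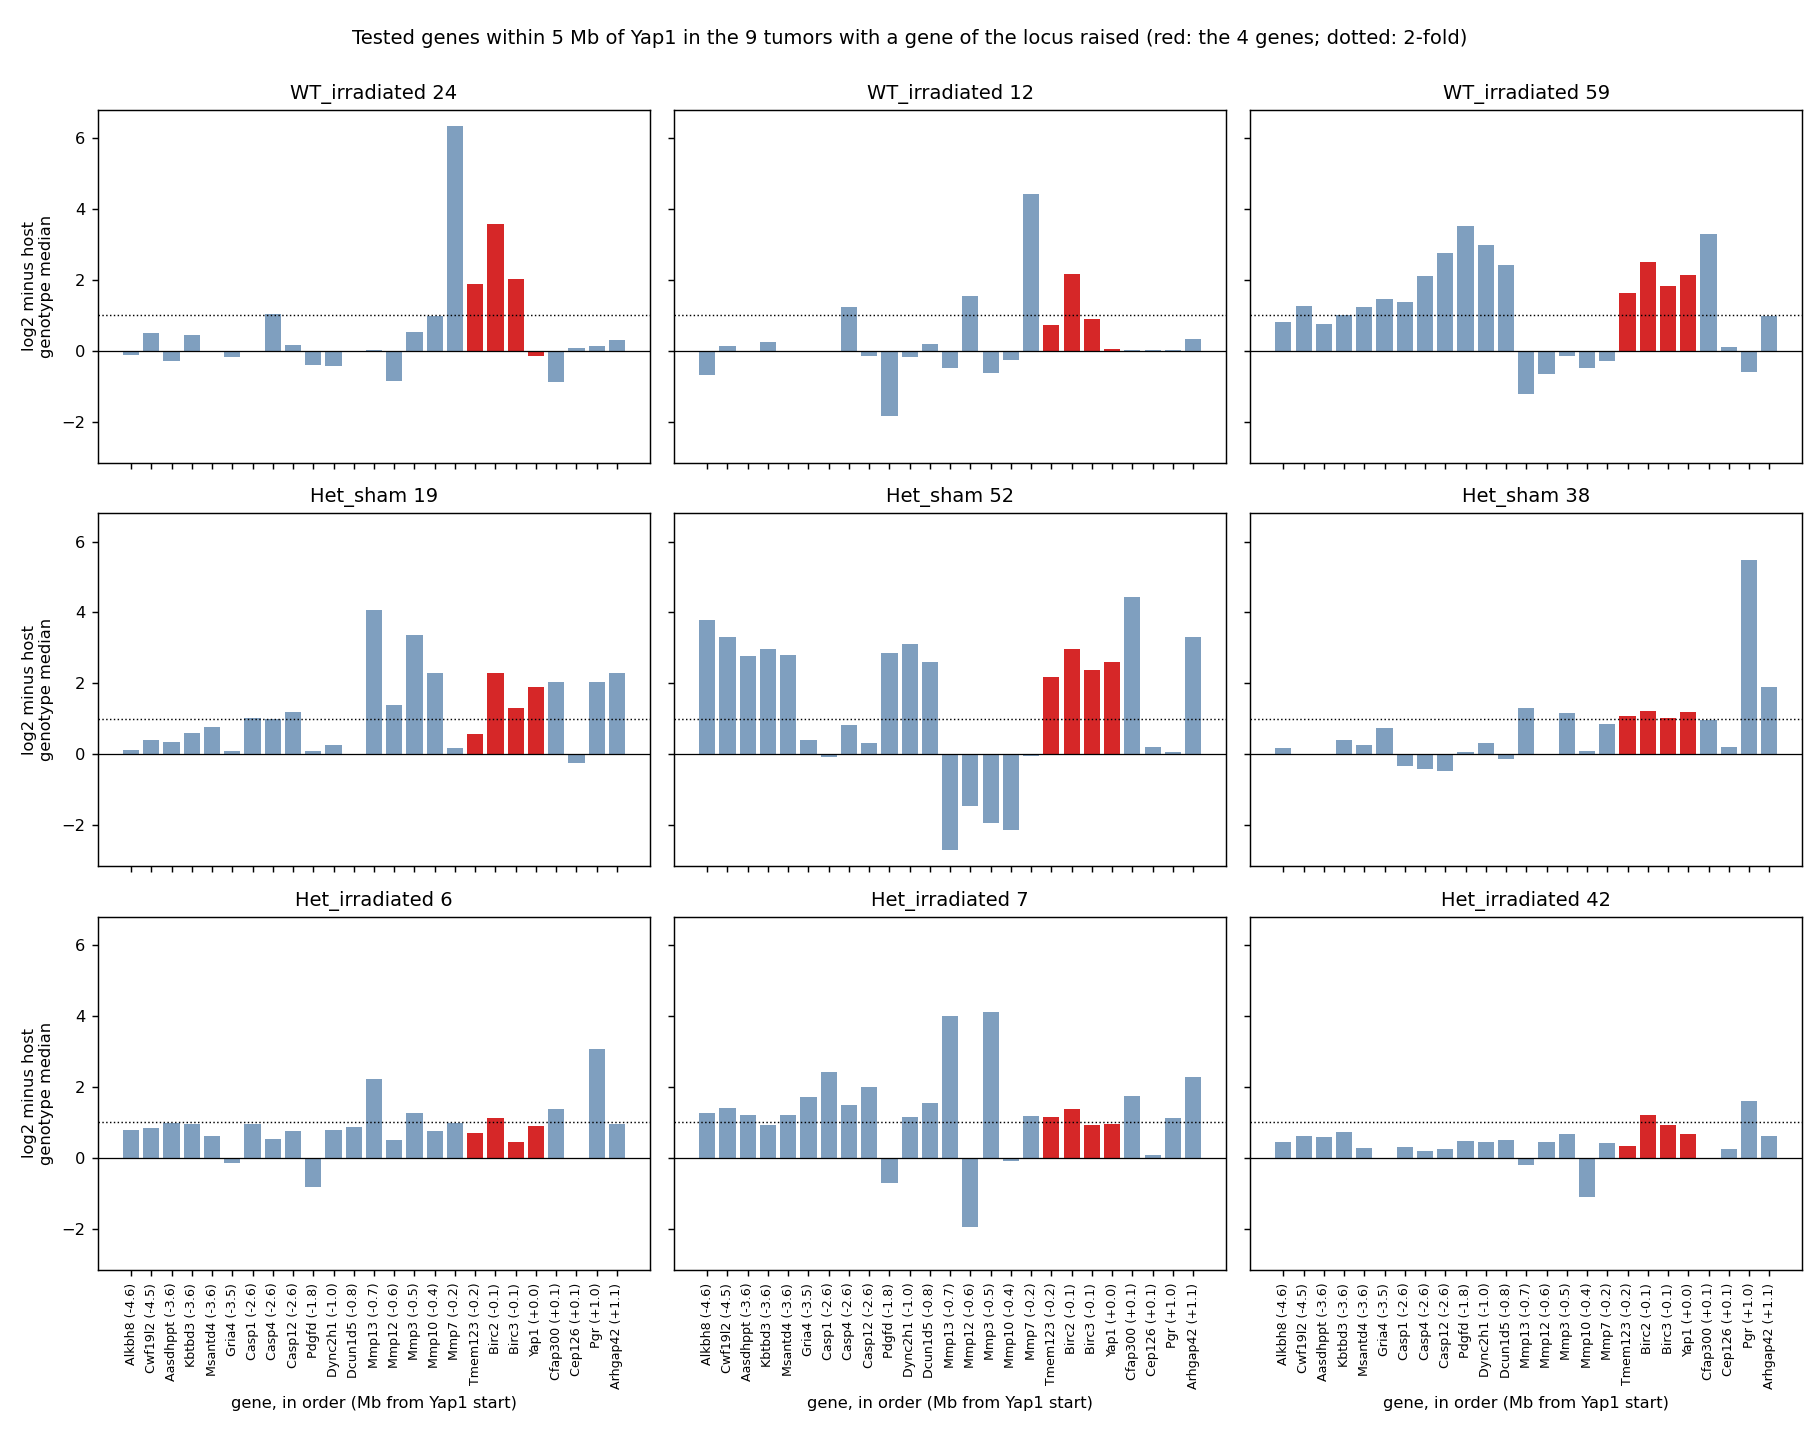
Log2 value minus the host genotype median (vertical axis) of the tested genes within 5 Mb of the Yap1 start, in order along the chromosome with the distance in Mb (horizontal axis), in the 9 tumors with a gene of the locus raised; red bars are Tmem123, Birc2, Birc3 and Yap1. Het_sham 52 has raised genes on both sides of the red bars. WT_irradiated 59 has them mostly on the Tmem123 side, with Cfap300 alone raised beyond Yap1. In neither are the metalloproteinase genes next to Tmem123 raised. In WT_irradiated 24 and 12 the highest bars are Mmp7 and Birc2.

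Markers of other cell types and array controls moved in some of these tumors. Epithelial marker genes had their lowest mean of the 32 wild-type host tumors in tumor 59, at 7.31 against a median of 12.3 in its group, with all 8 genes measured, and the 4 skeletal muscle markers their highest, at 11.4. Irradiated heterozygote tumor 7 was second lowest of 24 for epithelial markers (9.73), and tumor 42 was highest for muscle (11.1). Tumor 7 was also highest of 24 for the adipocyte list (11.6) and second highest for the fibroblast (12.9) and macrophage (11.1) lists. Heterozygote sham-irradiated tumor 52 was lowest of 24 for the basal (6.87), macrophage (8.83), endothelial (5.99) and adipocyte (6.28) lists, and tumor 19 highest for the basal (12.4) and fibroblast (12.9) lists. The mean of 3 probe sets for 18S ribosomal RNA was under 11 on 9 arrays, 2 of them with a joint rise (9.46 for wild-type irradiated tumor 59 and 9.80 for heterozygote sham-irradiated tumor 19). The part of these differences in the rises was not tested. Without those 9 arrays 4 tumors had a joint rise: wild-type irradiated 24, heterozygote sham-irradiated 52 and 38 and heterozygote irradiated 7.

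Across all tumors of a host genotype the genes could be compared pair by pair, in 12 relations with permutation p-values (100000 permutations). In 24 tumors of heterozygote hosts all 6 pairs were correlated, with Pearson's r from 0.830 (Birc2 and Tmem123) to 0.925 (Birc2 and Birc3) and Spearman's rho from 0.710 to 0.863 (permutation p at most 0.00011, adjusted p at most 0.000189). Each Pearson permutation p was 1e-05, the smallest the permutations can give (adjusted p = 2e-05). Without the 2 tumors farthest from the median of the first gene, r was 0.758 to 0.892. The relations rested in good part on the raised tumors. In the 18 tumors with no raised gene r was 0.194 for Yap1 and Birc2 and at most 0.587, for Birc2 and Birc3. All pairs but Birc2 and Birc3 no longer passed there (permutation p from 0.0624 to 0.44). The genes were chosen with earlier results of these data known. With the raised tumors kept in, the small p-values are therefore no independent test of a joint rise.

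In wild-type hosts r was taken over the 29 tumors with no raised gene. The 3 raised tumors lay above a gap of 1.46 (log2) for Birc2, but only 1 lay above the largest gap for Yap1. Heterozygote hosts had gaps too, of 1.09 for Birc3 and 1.05 for Tmem123, yet their raised tumors were kept in. The main r values of the host genotypes were thus not taken alike. Those handled alike are the heterozygote values without raised tumors, from 0.194 to 0.587. In the 29 wild-type host tumors Yap1 and Birc2 were correlated, with r = 0.722 (permutation p = 3e-05, adjusted p = 5.14e-05). Their rho was 0.770 (permutation p = 2e-05, adjusted p = 6e-05), and r was 0.681 without the 2 farthest tumors. With probe sets chosen by interquartile range r was 0.267 and the relation did not pass (permutation p = 0.164). The other 5 pairs lay between -0.155 and 0.298, with adjusted permutation p from 0.177 to 0.943.

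The genes most like each one were found by Pearson's r over 56 tumors, of values minus the group mean. The 5 genes nearest Yap1 in pattern all lay on chromosome 9: Msantd4 (r = 0.852), Dync2h1 (0.822), Cfap300 (0.774), Kbtbd3 (0.772) and Arhgap42 (0.724). For Birc2 they were Tmem123 (0.819), Birc3 (0.804), Ago4 of chromosome 4 (0.737), Cd207 of chromosome 6 (0.711) and Kbtbd3 (0.699). Tmem123 was nearest to Birc2, Birc3 (0.758), Ccdc82 (0.716), Kbtbd3 (0.715) and Cwf19l2 (0.709), and Birc3 to Birc2, Tmem123, Ccdc82 (0.677), Cd207 (0.661) and Casp4 (0.653). Of the 20 most alike genes, 17 for Yap1, 16 for Tmem123, 8 for Birc3 and 7 for Birc2 were on chromosome 9, which holds 5.6% of tested genes. These likenesses share arrays and the few high tumors, and are a description.

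Host irradiation was compared with sham irradiation in each host genotype. In heterozygote hosts all 4 genes had lower means in irradiated hosts: Yap1 by -0.77 (SE 0.28), Birc2 by -0.79 (SE 0.40), Birc3 by -0.58 (SE 0.33) and Tmem123 by -0.43 (SE 0.28) on the log2 scale. None passed limma's test adjusted over all genes (adjusted p = 0.680, 0.870, 0.897 and 0.903). Of the 12508 genes, 0.0% were called, and 730 had an unadjusted p under 0.05, Yap1 among them (p = 0.00867 by limma). Single tumors moved these values. Without heterozygote sham-irradiated tumor 52 the differences were -0.42, -0.39, -0.22 and -0.09, and without tumor 15 of that group, where all 4 genes were low, they were -1.07, -1.06, -0.87 and -0.62.

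In wild-type hosts the differences were -0.01 (SE 0.24) for Yap1, 0.06 (SE 0.33) for Birc2, 0.16 (SE 0.27) for Birc3 and 0.28 (SE 0.23) for Tmem123. None passed limma's test (adjusted p from 0.871 to 1.0), 0.0% of genes were called, and 884 genes, none of these 4, had an unadjusted p under 0.05. Without wild-type irradiated tumor 24 the Birc2 difference was -0.09.

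The difference of the irradiation effect between host genotypes was -0.77 (SE 0.37) for Yap1, -0.85 (SE 0.52) for Birc2, -0.74 (SE 0.42) for Birc3 and -0.70 (SE 0.36) for Tmem123, with a limma adjusted p of 0.999 for each. Here too 0.0% of genes were called, with 605 at an unadjusted p under 0.05, Yap1 again among them. Averaged over host genotypes the differences were -0.39 (SE 0.18), -0.36 (SE 0.26), -0.21 (SE 0.21) and -0.08 (SE 0.18), and none passed (adjusted p from 0.615 to 0.955), with 1 gene of all called (0.00799%). Yap1 had an unadjusted p under 0.05 there, as did 972 genes in all.

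**Figure D5:**
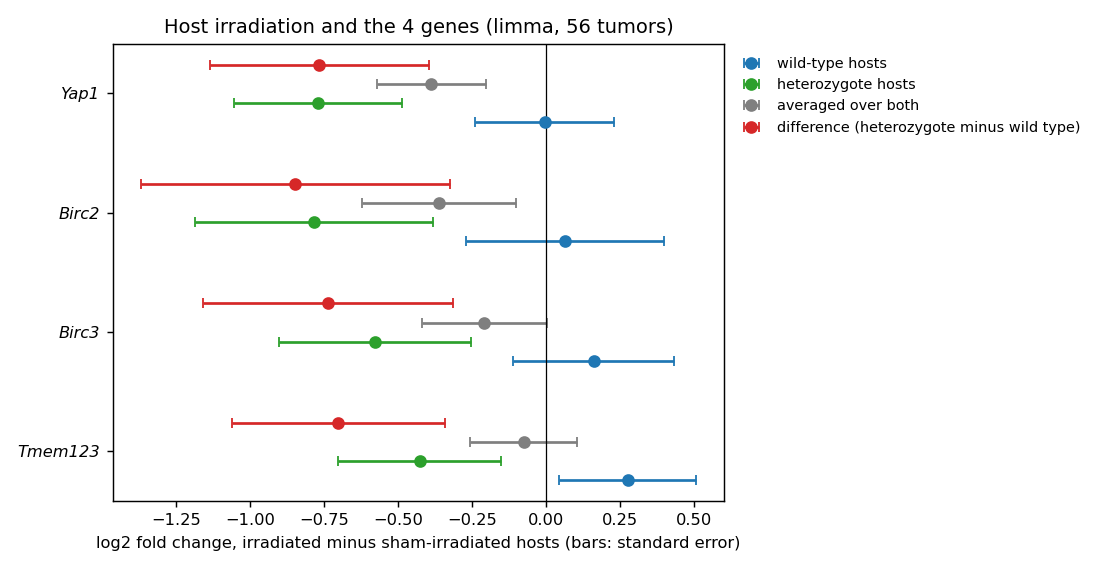
Log2 fold change with host irradiation (horizontal axis; bars, standard error from limma over 56 tumors) of the 4 genes (vertical axis), in each host genotype, averaged, and as the difference between genotypes. The heterozygote values lie between -0.79 and -0.43 and the wild-type values between -0.01 and 0.28; none passed the adjusted threshold.

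The share of tumors with a raised gene was also compared. Among heterozygote hosts Yap1 was raised in 3 of 6 sham-irradiated and 0 of 18 irradiated tumors, and so was Birc3 (two-sided Fisher's exact p = 0.00988 for each; adjusted over all genes, 1.0). Of all genes 0.28% reached an unadjusted p under 0.05 in that comparison, and 0.0% passed the adjusted threshold. Birc2 was raised in 3 of 6 and 3 of 18 (Fisher's exact p = 0.139), and Tmem123 in 2 of 6 and 1 of 18 (p = 0.143, exact). In wild-type hosts the genes were raised in 1 to 3 of 23 irradiated and 0 of 9 sham-irradiated tumors, with exact p from 0.541 to 1.0; 0.632% of genes had an unadjusted p under 0.05 there. Against the own group's median, Yap1 was raised in 2 of 6 and 1 of 18 heterozygote tumors (exact p = 0.143). Birc3 was raised in 1 of 6 and 0 of 18 (exact p = 0.25). At 1.5-fold above the host genotype median the exact p was 0.139 for Yap1 and 0.0785 for Birc3, and at 3-fold 0.0543 and 0.25. Without arrays of low 18S it was 0.128 and 0.0476. With probe sets chosen by interquartile range it was 0.0543 and 0.00988. After quantile normalization both stayed at 0.00988.

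Between host genotypes, arrays of the 2 sets had different medians (5.92 to 6.00 and 5.57 to 5.71), so genotype and array set cannot be told apart. In sham-irradiated hosts the genes were higher in heterozygote hosts by 0.79 (Yap1), 0.58 (Birc2), 0.66 (Birc3) and 0.64 (Tmem123) on the log2 scale while the median gene was at -0.25. The limma adjusted p was 0.108, 0.443, 0.261 and 0.189, and 7.96% of all genes were called. With all arrays quantile normalized together Yap1 was at 0.97 (adjusted p = 0.216). Without tumor 52 the 4 differences were 0.44, 0.18, 0.30 and 0.30; leaving out other single tumors took Yap1 to at most 1.09, and its adjusted p to 0.0228 at the lowest. In irradiated hosts the differences were 0.02, -0.27, -0.08 and -0.06 with the median gene at -0.22, none passed (adjusted p from 0.454 to 0.939), and 31.5% of genes were called.

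The pathways of the 4 genes were read through lists. Hippo kinases and adaptors (14 of 15 measured), YAP partners such as the TEAD factors (5 of 5), YAP and TEAD target genes (15 of 15), the IAP family and its antagonists (6 of 7), the TNF receptor complex and NF-kB (13 of 16) and apoptotic caspases (2 of 4) had no gene called, in either direction, in any of the 4 irradiation comparisons. Averaged over host genotypes, the Hippo genes with the lowest p were the YAP competitor gene Vgll4, at -0.26 (SE 0.13), and Ptpn14, at -0.20 (SE 0.14), with limma adjusted p of 0.641 and 0.761. Among targets, Nuak2 was at 0.37 (SE 0.21) and Tgfb2 at -0.43 (SE 0.25), and among partners Tead4 at 0.36 (SE 0.25). In the NF-kB list the kinase gene Ikbkb was at 0.21 (SE 0.10) and the inhibitor gene Nfkbie at 0.40 (SE 0.22), and in the IAP list Diablo, an IAP antagonist, was at -0.12 (SE 0.08) and Naip2 at 0.28 (SE 0.20). The 5 measured metalloproteinase genes of the cluster had a median of -0.40 in wild-type and -0.21 in heterozygote hosts, with none called. The median of the YAP and TEAD targets was 0.15 in wild-type and -0.02 in heterozygote hosts, against -0.003 and 0.009 for all genes. A list of 15 other chromosome 9 neighbors, 12 of them measured, had a median of -0.44 in heterozygote hosts, all 12 below 0 and none called. This list leaves out some tested neighbors, namely Alkbh8, Gria4, Cfap300 and Cep126. The tumors with a raised locus entered these medians too.

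YAP target genes as a list showed little correlation with Yap1 RNA. The 15 targets had a median r of -0.04 with Yap1 over 56 tumors, 5 of them above 0, against -0.01 for all genes. In heterozygote sham-irradiated tumor 52, highest for Yap1, 1 of 15 was raised, Tgfb2 at 1.94, against 5.74% of all genes. In it 6 were at least 2-fold below the median, among them the matricellular gene Ccn2 (-1.45), the receptor gene Axl (-1.96) and Nt5e (-4.63). This tumor was also second lowest of 24 for the fibroblast list (9.68), and lowest for the macrophage, endothelial and adipocyte lists. The part of cell content in its target values was not tested. Heterozygote sham-irradiated tumor 19, with Yap1 3.69-fold up, had 4 of 15 raised, against 7.61% of all genes. These were Ankrd1 at 1.62, Axl at 1.503, Ajuba at 1.34 and Dock5 at 1.05, and Ccn2 was at 0.96. Wild-type irradiated tumor 12, with Yap1 at 1.04-fold, also had 4 of 15 raised, against 7.07% of all genes. They were Ajuba at 1.57, Fjx1 at 1.26, Axl at 1.20 and Crim1 at 1.19. In heterozygote sham-irradiated tumor 38, with Yap1 2.28-fold up, 0 of 15 were raised, against 4.13% of all genes. In wild-type irradiated tumor 59 3 were raised, against 9.31% of all genes. Among them was Ankrd1, which muscle also expresses, at 5.65 in the tumor with the highest muscle markers. Among the partners and adaptors Amotl1, at 6.61 Mb from Yap1 on the same chromosome, was the Hippo gene most like it (r = 0.577).

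NF-kB genes were raised beside Birc2 in irradiated wild-type tumors 24 and 12, but not in most other tumors with Birc2 raised. All 13 genes of the TNF receptor and NF-kB list had r above 0 with Birc2 (median 0.252, against -0.01 for all genes), but 2 of 13 did with Yap1. These r values include tumors 24 and 12, whose part in them was not tested. In wild-type irradiated tumor 24, 7 of the 13 were raised, with Traf2, whose product recruits cIAP1 and cIAP2, at 4.20, Nfkbie at 2.47, Tnfaip3, a feedback inhibitor, at 1.96 and Relb at 1.93. In tumor 12, 5 were raised, with Tnfaip3 at 2.01, Nfkbie at 1.90 and Relb at 1.63, while Traf2 was at 0.63. Of all genes, 7.15% were raised in tumor 24 and 7.07% in tumor 12. These tumors also had the highest and second highest T cell marker means of 32 (8.26 and 7.34, against a median of 5.71 in their group, over 3 of 4 marker genes), and the part of those cells was not tested. Of the other 7 tumors with Birc2 raised, 1 gene of the list was raised in wild-type irradiated tumor 59 and 1 in heterozygote sham-irradiated tumor 19, and none in the rest. Those with none included irradiated heterozygote tumors 6, 7 and 42, in which Yap1 was not raised either, with Nfkbie at -0.51, 0.15 and -0.46. In heterozygote sham-irradiated tumor 52, where Birc2 was 7.78-fold up, Nfkbie was at -1.24, Tnfaip3 at -0.69 and Relb at -0.68.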

How the data were processed

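RNA from 56 tumors was hybridised to Affymetrix 3' arrays (100 ng of RNA each), per the labels' protocols. The authors deposited log2 values for probe sets after RMA, as the submitters' processing notes state; no version of it was found in the sources used here. Array medians were treated as showing separate normalization of the host genotypes. Among array columns, 0 were duplicates, and 2 arrays correlated at most at 0.990. The number of arrays limits the precision.

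Of 45101 probe sets, 34958 had 1 gene symbol, 932 several and 9211 were unnamed here, by the platform annotation; only the first kind was used. A probe set had to exceed 5.83, the overall median value, on 6 or more arrays; per gene the brightest on average was taken, and 12467 of 12508 genes matched GRCm38.p6. limma 3.58.1 (R 4.3.3; lmFit and eBayes, 4 group means, all 56 arrays) gave Benjamini-Hochberg adjusted p-values over all genes, with a threshold of 0.05. Fisher's exact tests and permutations within host genotype used scipy 1.17.1 and numpy 2.4.6 in Python 3.11.15. Both the fit and the count of joint rises were tested on simulated data. Genes named were the 4 of the locus, the 5 most alike to each, neighbors within 5 Mb raised in a tumor with a joint rise, and list genes with the lowest p for averaged irradiation. Other genes, such as neighbors not raised or beyond 5 Mb and list genes given for single tumors, were chosen after their values were seen. The 4 genes and the lists were chosen with earlier results of these data known. Alternatives covered filters, probe set choice, normalization, eBayes settings, array weights, thresholds and single tumors left out; those on 18S, and on heterozygote tumors with no raised gene, were added after seeing the data. The level of the gene absent from the grafts is not reported here.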

Additional observations from a re-analysis of the deposited data

Results flagged for a closer look

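In the sham-irradiated wild-type group the other probe set of Yap1 read 9.98 in tumor 17, against a median of 8.62 in the other tumors of that group. It was the highest of 9, and its gap to the next covered 0.507 of the whole range, more than the limit of Dixon's test. Of 14 sets of values tested this was the 1 that passed, and chance gives about 1 in 20.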

How the results depend on the processing

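No paired analysis was possible because the numbers in the labels do not recur across groups. No irradiation comparison of the 4 genes passed limma's adjusted threshold under any alternative run. The cause of the changes below was not tested. Irradiation in wild-type hosts changed sign for Birc2 with array weights (-0.241), and for Yap1 with probe sets chosen by interquartile range (0.0439), with 18S as a covariate (0.297) and without arrays of low 18S (0.0197). The averaged difference of Tmem123 was 0.134 with the interquartile range rule. Between genotypes in irradiated hosts, quantile normalization gave 0.139 for Birc3 and 0.146 for Tmem123, and Yap1 was -0.13 with the interquartile range rule and -0.116 with the 18S covariate. In sham-irradiated hosts Yap1 was 0.886 with that covariate (adjusted p = 0.049).

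Leaving out 1 tumor at a time gave ranges of -0.0885 to 0.123 for Birc2 and -0.103 to 0.0383 for Yap1 (irradiation, wild-type hosts), and -0.172 to 0.0946 for Tmem123 (averaged). For genotype they were 0.436 to 1.09 for Yap1 in sham-irradiated hosts, and -0.153 to 0.00751 for Birc3, -0.127 to 0.0172 for Tmem123 and -0.0296 to 0.12 for Yap1 in irradiated hosts.

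At 1.5-fold, Yap1 and Birc3 were each raised in 8 tumors and 9 had a joint rise. At 3-fold, Birc2 was raised in 5, Birc3 and Tmem123 in 3, and 3 had a joint rise, as also when all 4 genes were required. Birc3 was raised in 3 tumors against the own group's median and in 3 without arrays of low 18S.

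In wild-type hosts the interquartile range rule gave r = 0.267 for Yap1 and Birc2, 0.394 (permutation p = 0.0336) for Yap1 and Tmem123, -0.0101 for Birc2 and Tmem123 and -8.5e-06 for Birc3 and Tmem123. Without the 2 farthest tumors r was 0.305 for Yap1 and Birc3 and 0.207 for Birc2 and Birc3, whose rho was 0.273 and whose r after quantile normalization was 0.0512. In heterozygote tumors with no raised gene, 5 pairs no longer passed: r was 0.194 (Yap1, Birc2), 0.449 (Yap1, Birc3), 0.439 (Yap1, Tmem123), 0.299 (Birc2, Tmem123) and 0.447 (Birc3, Tmem123). Genes called for genotype in sham-irradiated hosts were 996, against 4032 with no filter, 1744 with the interquartile range rule, 48 after quantile normalization, 172 in the fit of only the groups compared and 604 without arrays of low 18S; in irradiated hosts they were 3939, against 8623 with no filter and 247 after quantile normalization.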
